A study of Mus musculus with 2 samples.

Results

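Genes of the endoplasmic reticulum (ER) folding machinery and of its XBP1 and ATF6 response were compared between MALAT1-knockdown and control cells. The genes were chosen by name and number 10 of the 46095 genes in the count table: Hspa5, Hsp90b1, Calr, Pdia4, Pdia6, Dnajb9, Herpud1, Sdf2l1, Creld2 and Xbp1. The samples were 1 library of C3H10 cells given a MALAT1 ASO, and 1 library of the same cells given a negative control ASO (NC). These cells (C3H/10T1/2) are a mouse mesenchymal line that can form adipocytes. The strain is given as C57BL/6, while the name of the line holds C3H, and this difference was not resolved here. An ASO is an antisense oligonucleotide that pairs with an RNA and has it cleaved, and both were used at 100 nM. Cells of both groups were then grown to confluence and induced with isobutyl-1-methylxanthine, dexamethasone, troglitazone and insulin. They were kept in medium with insulin alone after 2 days and collected at differentiation day 6. Which of the study's ASOs against MALAT1 was sequenced is not given in the sources used here. Each group is 1 library of 1 cell line, and no untransfected culture was analysed here.

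Proteins that are secreted or placed in membranes fold in the ER, where chaperones hold them, oxidoreductases form their disulfide bonds, and misfolded chains are sent back to the cytosol for degradation. When unfolded proteins accumulate, the unfolded protein response (UPR) is started by the sensors IRE1, ATF6 and PERK. IRE1 splices the Xbp1 mRNA so that an active transcription factor is made, ATF6 is cut in the Golgi to release another, and PERK raises translation of ATF4. XBP1 and ATF6 act on ER stress response elements in promoters of chaperone and degradation genes. Adipocytes secrete adipokines and lipoprotein lipase in large amounts, and XBP1 is known as a factor of adipocyte differentiation.

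The element bound by ATF6 together with NF-Y consists of CCAAT and CCACG separated by 9 bases (ERSE), and a second form consists of ATTGG and CCACG separated by 1 base (ERSE-II). Exact matches on both strands were sought in RefSeq promoter windows of GRCm38.p6, from 250 bases before to 50 bases after each start, and all 10 genes had a window. An ERSE was found in 5 of the 10 genes and in 39 of all 32851 windows (0.119%). These are the chaperone and folding genes Hspa5, Hsp90b1, Calr, Pdia6 and Creld2. Herpud1, a degradation gene, held an ERSE-II, which 12 windows in all hold (0.0365%). The windows of Pdia4, Sdf2l1, Dnajb9 and Xbp1 held neither form as spelled here, which says only that these letters are absent from these windows. The genes were chosen as chaperones and XBP1 or ATF6 targets, so matches to an ATF6 element are partly built into the choice, and their number among the 10 is a description. They are printed to show which of the 10 hold which form. Sequences are given 5′ to 3′ on the strand of the gene with the match in capitals, and the stretch of Hspa5 is shorter because a GENCODE transcript of this gene begins upstream of it.
Hspa5, chr2:34772020-34772048, plus strand: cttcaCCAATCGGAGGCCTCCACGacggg
Hsp90b1 distal element, chr10:86705626-86705668, minus strand: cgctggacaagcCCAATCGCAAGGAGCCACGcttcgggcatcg
Hsp90b1 proximal element, chr10:86705521-86705563, minus strand: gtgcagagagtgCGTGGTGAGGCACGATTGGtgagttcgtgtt
Calr, chr8:84847063-84847105, minus strand: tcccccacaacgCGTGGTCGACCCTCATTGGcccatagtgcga
Pdia6, chr12:17266479-17266521, plus strand: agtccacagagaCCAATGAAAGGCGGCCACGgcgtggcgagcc
Creld2, chr15:88819508-88819550, plus strand: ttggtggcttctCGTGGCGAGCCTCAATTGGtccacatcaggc
Herpud1 second form, chr8:94386365-94386399, plus strand: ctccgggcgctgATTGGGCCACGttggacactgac

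In Hsp90b1 (proximal element), Calr and Creld2 the ERSE lay on the opposite strand and therefore reads CGTGG, 9 bases, ATTGG. The ERSE of Hspa5 ended 47 bases before the start and that of Pdia6 80 bases before it. Hsp90b1 alone of the 10 held more than 1 exact ERSE match. Its matches ended 194 and 89 bases before the start. The UPR element was sought only as TGACGTG followed by G, which 0.676% of windows hold. In this spelling it had no match in the 10 windows. TGACGTG with any next base, held by 2.01% of windows, was found in Hspa5 alone. The next base there is A, so a spelling of the element that also allows A would match Hspa5. The whole 250 bases before the start are given for Creld2, which had an ERSE and more counts in knockdown cells, and for Herpud1, which had an ERSE-II and fewer.
Creld2 upstream, chr15:88819396-88819645, plus strand: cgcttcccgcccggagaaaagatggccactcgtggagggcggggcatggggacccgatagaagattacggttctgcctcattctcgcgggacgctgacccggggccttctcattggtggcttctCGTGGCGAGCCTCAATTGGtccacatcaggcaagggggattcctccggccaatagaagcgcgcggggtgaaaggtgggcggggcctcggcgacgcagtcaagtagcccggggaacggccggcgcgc
Herpud1 upstream, chr8:94386179-94386428, plus strand: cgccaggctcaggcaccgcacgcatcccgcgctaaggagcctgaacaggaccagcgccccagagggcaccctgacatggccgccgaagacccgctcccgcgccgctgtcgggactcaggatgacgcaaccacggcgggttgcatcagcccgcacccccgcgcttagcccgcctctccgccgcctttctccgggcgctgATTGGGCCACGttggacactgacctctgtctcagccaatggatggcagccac

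**Figure D1:**
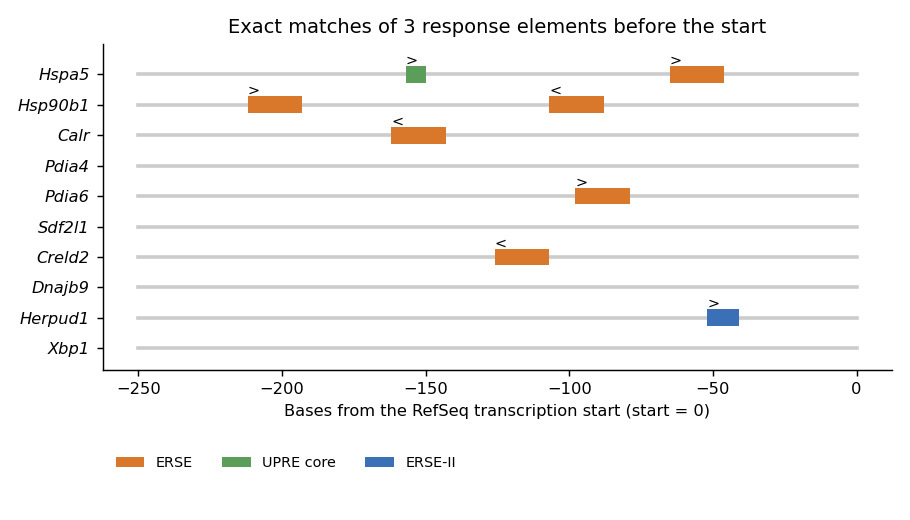
Positions of exact matches of ERSE, ERSE-II and TGACGTG (UPRE core) in the 250 bases before the RefSeq start of each of the 10 genes, with the x axis in bases from the start and > or < for a match on the strand of the gene or on the opposite strand. Exact ERSE matches lie in 5 of the 7 genes at the top, and Dnajb9, Herpud1 and Xbp1 at the bottom hold none.

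Sequencing gave 58147539 counts for the control and 61653549 for the knockdown library. Of all genes, 17356 reached 10 counts over both libraries together and were compared, and 8251 of these, called well-counted genes here, had a mean of 1000 counts or more. Malat1 had 170402 counts in the control and 45396 in the knockdown library, which is 24.7% of the control level after scaling. Levels are given as counts per 1000000 counts of the scaled library size (CPM), and differences as the log2 ratio of knockdown over control (the log2 fold change). With 1 library per group no difference has a replicate check, so no p-value is given for the conditions, and the 95% Clopper-Pearson intervals cover counting error only. A gene was called at a change of 1.5-fold or more with an interval clear of no change. The middle 90% of well-counted genes had log2 ratios from -0.43 to 0.35, a description of how far well-counted genes differed between these libraries.

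Between these libraries the 10 genes differed in both directions. Of the chaperones and folding factors, 7 (Hspa5, Hsp90b1, Calr, Pdia4, Pdia6, Sdf2l1, Creld2) were each slightly higher in knockdown cells, by 1.06-fold to 1.24-fold. The transcription factor gene Xbp1, the co-chaperone gene Dnajb9 and the degradation gene Herpud1 were lower, at 60.9% to 75.9% of the control level. All 10 passed the filter on low counts and all 10 had a mean of 1000 counts or more. At 1.5-fold, 0 of the 10 were called higher, where 5.09% of all genes tested and 1.43% of well-counted genes were. One gene, Dnajb9, was called lower (1 of 10), where 8.13% and 2.84% were. With the interval alone, 7 of 10 were clear of no change in the higher direction and 3 of 10 in the lower direction. At this depth the shares were 26.7% and 26.4% among all genes tested, and 37.3% and 31.8% among well-counted genes, so a clear interval is common. The median log2 ratio over the 10 was 0.18, against -0.0031 over all genes tested and 0.01 over well-counted genes.

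**Figure D2:**
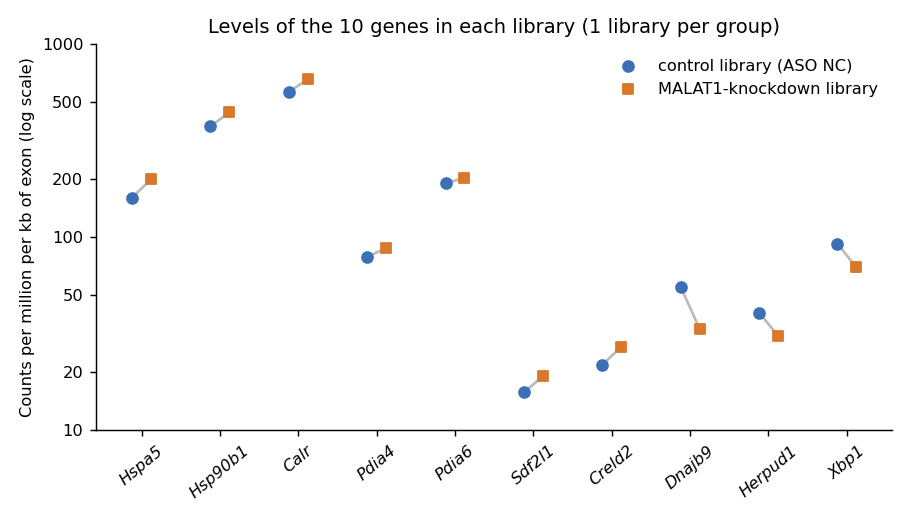
Level of each of the 10 genes in the control library (circles) and the MALAT1-knockdown library (squares), in CPM per kilobase of exon on a log axis, with 1 library per group and therefore no error bar. The 7 genes from Hspa5 to Creld2 are higher in the knockdown library, and Dnajb9, Herpud1 and Xbp1 are lower.

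Hspa5 (chr2:34771970-34777547, plus strand) encodes BiP, the Hsp70 of the ER lumen, which holds unfolded chains and keeps the UPR sensors inactive. It had 34689 counts in the control and 46498 in the knockdown library. The log2 ratio was 0.32 (counting interval 0.30 to 0.34), the highest of the 10, and 6.06% of well-counted genes were as high or higher. Hsp90b1 (chr10:86690209-86705509, minus strand) encodes GRP94, the Hsp90 of the ER, which folds integrins and Toll-like receptors. It had 61124 counts in the control and 77641 in the knockdown library, a log2 ratio of 0.24 (counting interval 0.22 to 0.25). A pseudogene, 1810014B01Rik, overlaps 4598 bases of Hsp90b1 on the opposite strand and had 132 and 97 counts. Whether strand was used in counting is not given in the sources used here, so reads of this overlap, and of the 50 bases that Pdia6 shares with Atp6v1c2, may have been lost or divided. Calr (chr8:84841850-84846934, minus strand) encodes calreticulin, a lectin chaperone that binds calcium and glycoproteins. It had 70961 and 89341 counts, a log2 ratio of 0.23 (counting interval 0.21 to 0.24). Gene positions are those of GENCODE M21 on GRCm38. Hspa5, Hsp90b1 and Calr all lay within the middle 90% of well-counted genes.

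Pdia4 (chr6:47796141-47813430, minus strand) and Pdia6 (chr12:17266545-17284770, plus strand) encode disulfide isomerases, and their differences were the smallest of the 10. Pdia4 had 10991 counts in the control and 13024 in the knockdown library, a log2 ratio of 0.14 (counting interval 0.10 to 0.18). Pdia6 had 23930 and 27351 counts, a log2 ratio of 0.09 (counting interval 0.06 to 0.11), and 33.6% of well-counted genes were as high or higher. Sdf2l1 (chr16:17130138-17132383, minus strand), a partner of BiP and its J-domain cofactors, and Creld2 (chr15:88819646-88826683, plus strand), a small secretory pathway protein of the stress response, had the fewest counts. Sdf2l1 had 1006 and 1311 counts, a log2 ratio of 0.28 with an interval from 0.16 to 0.40. Creld2 had 1727 and 2289 counts, a log2 ratio of 0.30 with an interval from 0.21 to 0.39. The intervals of Sdf2l1 and Creld2 overlap those of Hspa5, Hsp90b1 and Calr, whereas that of Pdia6 lies below all of these.

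Xbp1 (chr11:5520659-5525893, plus strand) encodes the factor that IRE1 activates through splicing. It had 12766 counts in the control and 10363 in the knockdown library, a log2 ratio of -0.41 (counting interval -0.44 to -0.37) or 75.4% of the control level. Counts per gene do not separate spliced from unspliced Xbp1 mRNA, so activation by IRE1 was not measured. Herpud1 (chr8:94386438-94395377, plus strand) encodes HERP, a membrane protein that organises the ubiquitin ligase complex of ER-associated degradation. It had 4588 and 3750 counts, a log2 ratio of -0.40 (counting interval -0.46 to -0.33). Dnajb9 (chr12:44205559-44210326, minus strand) encodes ERdj4, a J-domain cofactor of BiP that takes part in degradation and in holding IRE1 inactive. It had 7847 and 5144 counts, a log2 ratio of -0.72 (counting interval -0.77 to -0.66), the lowest of the 10 and 60.9% of the control level. Dnajb9 lay outside the middle 90% of well-counted genes, 1.71% of which were as low or lower. For Xbp1 that share was 5.59% and for Herpud1 5.77%, so both lay just inside.

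**Figure D3:**
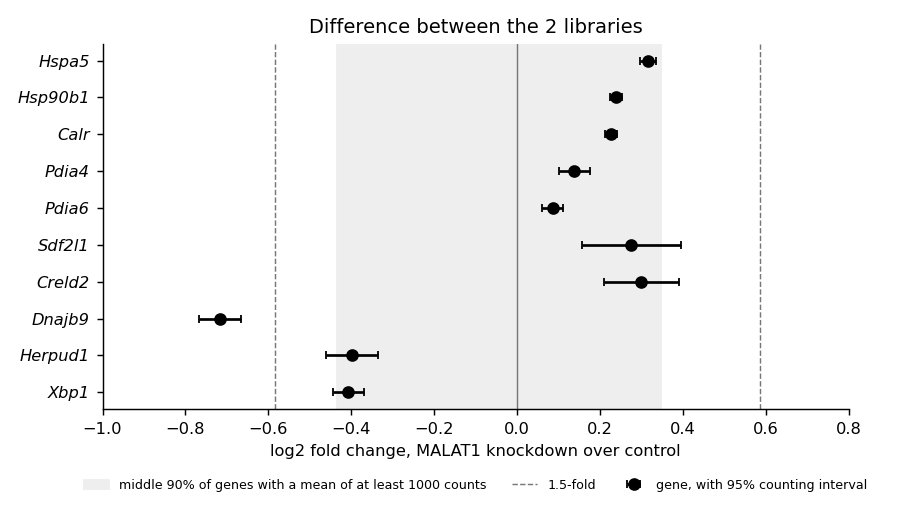
log2 fold change (knockdown over control, x axis) of each of the 10 genes with its 95% counting interval, beside the middle 90% of well-counted genes (grey, -0.43 to 0.35) and the 1.5-fold lines (dashed). Dnajb9 at -0.72 is the only one of the 10 beyond a dashed line, and the 7 higher genes sit between 0.09 and 0.32.

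Ratios of counts within a library restate these differences without a scaling factor, and are given as a description of their size and not as further evidence of the split. For each count of Xbp1 there were 2.72 of Hspa5 in the control and 4.49 in the knockdown library, a log2 change of 0.72 (95% Wald interval 0.68 to 0.77). The ratio of Hspa5 to Dnajb9 went from 4.42 to 9.04, a log2 change of 1.03 (95% Wald interval 0.98 to 1.09). Across the 7 higher genes, the ratio to Xbp1 was 1.41 to 1.65 times and the ratio to Dnajb9 1.74 to 2.04 times its value in control cells. The ratio of Herpud1 to Xbp1 did not differ beyond counting error, with a log2 change of 0.0099 (95% Wald interval -0.06 to 0.08). The ratio of Dnajb9 to Xbp1 was lower in knockdown cells, with a log2 change of -0.31 (95% Wald interval -0.37 to -0.25). These intervals too cover counting error only, and the genes were grouped by the sign of the same differences.

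Per kilobase of exon, the levels spanned from Calr to Sdf2l1. In control cells Calr stood at 563 CPM per kb and Hsp90b1 at 375, followed by Pdia6 at 191 and Hspa5 at 160. Xbp1 came next at 92.6 CPM per kb, then Pdia4 at 79.4, and this pair changed places in knockdown cells, with 69.8 for Xbp1 and 87.4 for Pdia4. The order of the other 8 was the same in both libraries, down to Herpud1 at 40.7 and 30.9, Creld2 at 21.9 and 27.0 and Sdf2l1 at 15.7 and 19.0 CPM per kb. Pdia6 and Hspa5, at 202 and 199 CPM per kb in knockdown cells, lay side by side. Together the 10 genes took 0.395% of all counts in control cells (exact 95% interval 0.393% to 0.397%) and 0.449% in knockdown cells (0.447% to 0.450%). The 3 lower genes took 0.0433% of counts in the control and 0.0312% in knockdown cells.

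Read beside the promoter matches, all 5 genes with an exact ERSE match were among the higher ones, with a median log2 ratio of 0.24. Among the other 5, Pdia4 and Sdf2l1 were higher and Dnajb9, Herpud1 and Xbp1 lower, with a median of -0.40. Near matches were not sought. The printed Herpud1 stretch ends in CCAAT, 9 bases and CCAC, close to the ERSE spelling. In 6 further lists of ER genes (folding, disulfide bonds, degradation, translocation, transport to the Golgi and UPR sensors), 4 genes with a window had an ERSE. They are Canx at a log2 ratio of 0.05, Dnajc3 at 0.17, Ero1b at 0.45 and Syvn1 at -0.10. The median over these 4 was 0.11, against 0.03 over the 119 genes of these lists that had a window and no exact match. Of the 151 genes of these lists that were tested, those without a window were left out. Of the 4, 3 were above 0, as were 73 of the 119. A match is a description of the window and not a measured site, and no test was made on these few genes.

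Other genes of the folding machinery were compared by list. At 1.5-fold, 0 of 31 other ER chaperones and co-chaperones were called. Among all genes tested 5.09% were called higher and 8.13% lower, and among well-counted genes 1.43% and 2.84%. A count of 0 among 31 genes is near these shares. Of the 31, 19 had intervals clear on the higher side, where 26.7% of all genes tested and 37.3% of well-counted genes had. On the lower side 2 had, where 26.4% and 31.8% had. The median log2 ratio of the 31 was 0.08. The same shares apply to the counts of calls and of clear intervals in the lists that follow. Genes of these lists that did not reach 1.5-fold are named here after their values were seen. The highest was Fkbp11, a prolyl isomerase of secretory cells, at 0.43. Dnajc10, a J-domain reductase, had 9348 and 12800 counts, a log2 ratio of 0.35, and Manf, a secreted stress factor that binds BiP, had 4272 and 5724 counts, a log2 ratio of 0.32. Canx, the membrane-bound relative of calreticulin, stayed near the control level, with 28535 and 31788 counts and a log2 ratio of 0.05. Sil1, the exchange factor of BiP, was lower, with 1830 and 1692 counts and a log2 ratio of -0.22. Serpinh1, the collagen chaperone, had 53526 and 64810 counts, a log2 ratio of 0.17.

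Among 17 other disulfide isomerases and oxidases, 1 was called lower, where 8.13% of all genes tested and 2.84% of well-counted genes were. The gene called was Ero1a (Ero1l in the table), the oxidase that recharges the isomerases. It fell from 16652 to 6935 counts, a log2 ratio of -1.37 (counting interval -1.41 to -1.33). Its relative Ero1b had 239 and 352 counts, a log2 ratio of 0.45 with an interval from 0.21 to 0.70. Pdia3, the isomerase that works with calreticulin, had 38235 and 51590 counts, a log2 ratio of 0.33, close to Hspa5. P4hb, the most counted isomerase of the list, had 73057 and 75330 counts, a log2 ratio of -0.06. The median of the list was 0.07.

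The other genes of ER-associated degradation were spread around no change. Of 30 genes written, 28 had enough counts, 0 were called, 4 had intervals clear on the higher side and 9 on the lower side, with a median log2 ratio of -0.02. The lowest was Derl1, part of the retrotranslocation channel, with 10973 and 9157 counts and a log2 ratio of -0.37. Syvn1, the ubiquitin ligase that HERP binds, had 4923 and 4934 counts, a log2 ratio of -0.10, and its partner Sel1l had 11593 and 12090 counts, a log2 ratio of -0.05. Both lay closer to no change than Herpud1 at -0.40. The lists for translocation and N-glycosylation (32 genes) and for ER to Golgi transport (30 genes) had 0 genes called and medians of 0.02 and 0.07. The highest gene in transport was Sec13, a coat protein of ER vesicles, with 4980 and 6881 counts and a log2 ratio of 0.36.

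Of 13 genes for UPR sensors and their partners 0 were called, 4 had intervals clear on the higher side and 4 on the lower side, with a median log2 ratio of 0.03. Ern1, which encodes IRE1, had 1823 counts in the control and 1670 in the knockdown library, a log2 ratio of -0.23 (counting interval -0.33 to -0.14). Atf6 had 3275 and 3231 counts, a log2 ratio of -0.13 (counting interval -0.20 to -0.06). Eif2ak3, which encodes PERK, had 1759 and 2077 counts, a log2 ratio of 0.13 (counting interval 0.04 to 0.23). Transcript levels say nothing of whether these sensors were active. Mbtps1, the first protease that cuts ATF6, had 14903 and 16380 counts, a log2 ratio of 0.03, and Atf6b had 5 counts in the control and 7 in the knockdown library, too few to compare.

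The 15 listed genes of the PERK and ATF4 arm were all lower in the knockdown library. The list, which includes Atf4, was written with earlier results of these data known. Of the 15, 6 were called lower, where 8.13% of all genes tested and 2.84% of well-counted genes were. Called higher were 0, where 5.09% and 1.43% were. All 15 had intervals clear on the lower side, where 26.4% and 31.8% had, and the median log2 ratio was -0.41. The number called lower was 1 at 2-fold, 5 with an assumed coefficient of variation between cultures of 0.1 and 0 with 0.2 or 0.4. Atf4 itself had 15744 and 12772 counts, a log2 ratio of -0.41, the same as Xbp1 to 2 decimals. Ddit3, which encodes CHOP, had 3580 and 2904 counts, also -0.41. Trib3, a pseudokinase induced by ATF4 and CHOP, had 1671 and 758 counts, a log2 ratio of -1.25 (counting interval -1.37 to -1.12), the lowest of the list. Nupr1 at -0.81 and Atf5 at -0.76, both stress-induced transcription regulators, were next when genes were ordered by the bound nearest to no change. Dnajb9 at -0.72 lay between Chac1 at -0.75, a glutathione-degrading enzyme, and Asns at -0.60, asparagine synthetase.

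**Figure D4:**
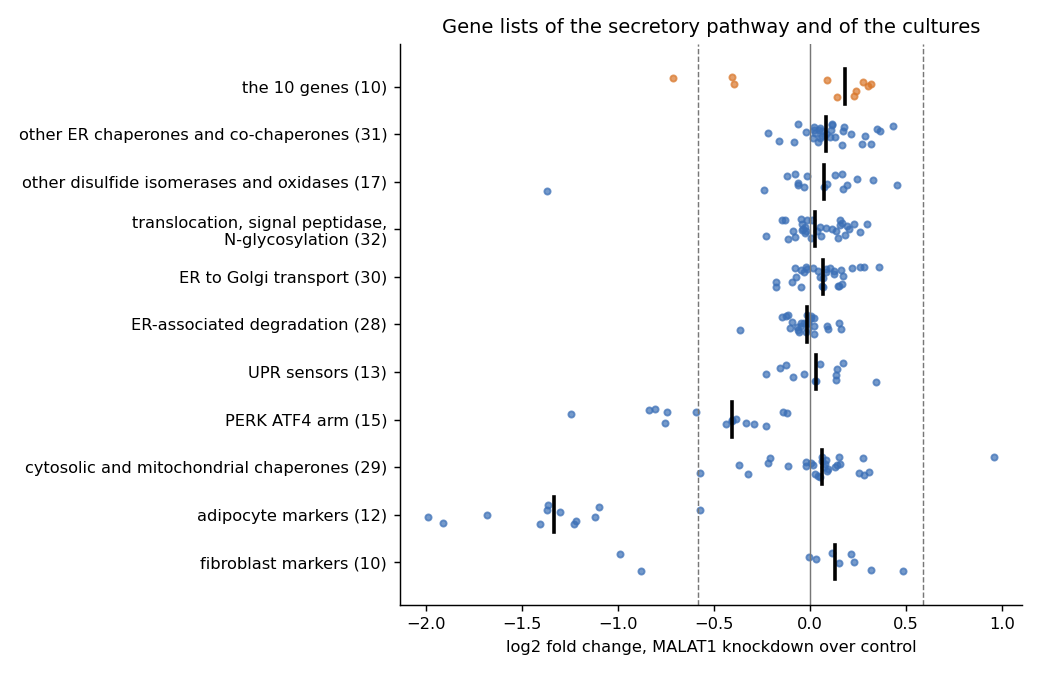
log2 fold change (knockdown over control, x axis) of every tested gene in each list, with the number of genes in brackets, the list median as a black bar, 0 as a solid line and 1.5-fold as dashed lines; the vertical scatter within a list has no meaning. The 10 genes (orange) split into 7 above 0 and 3 below, the PERK and ATF4 list lies wholly below 0, and the adipocyte markers lie farthest to the left.

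Marker genes of the cultures also differed between the libraries. All 12 adipocyte markers were lower in knockdown cells and 11 were called, where 8.13% of all genes tested were. With an assumed coefficient of variation of 0.2 the number called was 3, and with 0.4 it was 0. Their summed level was 7370 CPM in control cells and 2967 CPM in knockdown cells. Gpd1, an enzyme of glycerol 3-phosphate synthesis, had a log2 ratio of -1.91. The 10 fibroblast markers summed to 19136 and 20868 CPM, with 7 intervals clear on the higher side and Lum and Dcn called lower. Of 5 macrophage markers Adgre1, Ptprc and Itgam were at 0 in both libraries, where 0 allows up to 3 counts (0.0520 CPM in control cells and 0.0483 CPM in knockdown cells), Csf1r had 3 and 13 counts, Cd68 had 172 and 119, and the list summed to 3.03 and 2.12 CPM. Endothelial markers summed to 1.20 and 1.46 CPM. In bulk samples a smaller share of a cell type and less RNA per cell of that type cannot be told apart, and the part of the lower adipocyte markers in the lower Xbp1, Herpud1 and Dnajb9 or in the higher chaperones was not tested.

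Other rules for a call were set beside these. With lines at 25% above the control level and at 80% of it, 0 of the 10 were called higher and 3 lower (Dnajb9, Herpud1, Xbp1), where 9.83% and 13.3% of genes tested were, and Hspa5 at 1.24-fold lay just inside. At 2-fold, 0 of the 10 were called in either direction, where 2.7% and 4.6% of genes tested were. If cultures are assumed to vary with a biological coefficient of variation of 0.1, edgeR's exact test with Benjamini-Hochberg adjustment called 6.22% of genes tested and 1 of the 10, Dnajb9. With a presumed 0.2 it called 0.674% and with 0.4 it called 0.00576%, and 0 of the 10 in both. These coefficients are assumptions, since 1 library per group gives no estimate of the spread between cultures.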

How the data were processed

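The 1 control and 1 MALAT1-knockdown library were sequenced after rRNA depletion with a directional kit. The authors deposited raw counts of reads per gene symbol. Their processing notes name HISAT2 and GRCm38, while the versions, the counting tool, the annotation and the use of strand are not given in the sources used here. TMM factors came from edgeR 4.0.16 in R 4.3.3, 0.992 for control and 1.01 for knockdown. Genes with at least 10 summed counts entered, log2 fold changes used a prior count of 0.5, and intervals are Clopper-Pearson limits at 95% (scipy 1.17.1). The calculation was tested on simulated data with counting error only. These were drawn without spread between cultures, so the test does not bear on that spread. With 1 library per group, edgeR's quasi-likelihood test and DESeq2 could not estimate a spread, and n = 1 per group. Exon lengths came from GENCODE M21 (GRCm38). Of the 10 genes, 1 shared at least 200 bases at 95% identity with another gene's transcript (BLAST 2.17.0). Of 230 genes in 12 other lists, all were found in the table, 7 of them under an older symbol through RefSeq. Named genes are the 10, Malat1, marker genes, UPR sensors, genes of the PERK and ATF4 arm, and up to 3 called genes per list and direction, with exceptions stated. The genes and lists were chosen with earlier results of these data known. Alternatives were other scalings (library totals, DESeq2 1.42.0 size factors, upper quartile), filters, prior counts, fold lines and a preset spread.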

Additional observations from a re-analysis of the deposited data

How the results depend on the processing

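Each of the 10 log2 fold changes kept its direction under library totals, DESeq2 size factors, upper-quartile factors, both other filters and both other prior counts. Library totals moved 4 values by more than their counting interval, to 0.34 for Hspa5, 0.26 for Hsp90b1, 0.25 for Calr and -1.99 for Malat1, because this scaling shifts the median of all genes by 0.02. The number of the 10 called lower was 3 with lines at 25% above and 80% of the control level, 0 at a fold line of 2, 3 with a clear interval and no fold line (7 higher), 1 with a preset coefficient of variation of 0.1, 0 with 0.2 and 0 with 0.4. Over the 6 other ER lists, 6 genes were higher and 2 lower with these lines, 67 and 30 with a clear interval and no fold line, and 0 were lower with a preset coefficient of 0.2 or 0.4. Of the PERK and ATF4 list, 6 genes were lower at 1.5-fold, 5 with library totals, 11 with lines at 25% above and 80% of the control level, 1 at 2-fold, and 5, 0 and 0 with preset coefficients of 0.1, 0.2 and 0.4. For the adipocyte markers these were 11, 11, 12, 11, and 11, 3 and 0. Fewer genes pass a wider fold line or a larger assumed spread by construction. No paired analysis was possible because each group has 1 library, and no replicate could be left out. Depth limits little here, since the least counted of the 10 has over 1000 counts in each library.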

Other observations

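Of 29 cytosolic and mitochondrial chaperone genes tested, 0 were called at 1.5-fold. Among all genes tested 5.09% were called higher and 8.13% lower, and among well-counted genes 1.43% and 2.84%. Of the 29, 17 had intervals clear on the higher side in knockdown cells, where 26.7% of all genes tested and 37.3% of well-counted genes had. On the lower side 6 had, where 26.4% and 31.8% had. The 6 are the mitochondrial genes Hspa9, Trap1, Hspd1 and Hspe1 and the cytosolic genes Hsp90ab1 and Hspb8. The genes are named after their values were seen, and no difference between compartments was tested. Hspa9, the mitochondrial Hsp70, had 45665 counts in the control and 32975 in the knockdown library, a log2 ratio of -0.58, against 0.32 for Hspa5, its relative in the ER. Trap1, the mitochondrial Hsp90, had 12831 and 10669 counts, a log2 ratio of -0.37, against 0.24 for Hsp90b1. Hspd1 at -0.32 and Hspe1 at -0.22, the mitochondrial chaperonin pair, were lower as well. Hsp90ab1, a cytosolic Hsp90 and the most counted gene of the list, had 143626 and 152309 counts, a log2 ratio of -0.02, and Hspb8 had 4999 and 4972 counts, a log2 ratio of -0.11. On the higher side, Hsp90aa1 had 24523 and 31894 counts, a log2 ratio of 0.27, and Hspa8 had 25757 and 30914 counts, a log2 ratio of 0.16.

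Some genes of the lists could not be read in either library. Atf6b, the relative of Atf6, and Rnf5, a ubiquitin ligase of degradation, lie on chromosome 17 between Notch4 and H2-D1 (34564268 to 35267499, GRCm38) with the heat shock genes Hspa1a and Hspa1b. Of 56 protein-coding genes of this stretch in the table, 36 were listed at 0 in both libraries and 43 had under 10 summed counts. Csnk2b, Bag6 and Ddx39b, which most cells use, were among those listed at 0. The stretch was chosen after its counts were seen, and the reason for the zeros was not tested.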
